A study of Homo sapiens with 4 samples.

Results

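The genes described here are 45 genes of the endoplasmic reticulum (ER) stress response and of the stress factor ATF4, among 41084 Ensembl gene identifiers of the series. They were chosen by symbol, as known parts and targets of the response, with earlier results of these data known. Each symbol matched 1 identifier. They were measured by poly(A) RNA sequencing of OCI-AML3, a human acute myeloid leukaemia cell line, in 2 libraries of the genotype Plex CEBPB and 2 of the genotype Plex Control. CEBPB encodes the transcription factor C/EBPβ. The word Plex, how CEBPB was altered and whether a group came from 1 clone or separate cultures are not given in the sources used here, so p-values measure the spread between these libraries. No treatment is named for any library, and both groups are the same cell line. The series title places the comparison in the context of C/EBPβ, inflammatory cytokines and resistance to inhibitors of BCL2 and MDM2.

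Secreted and membrane proteins fold in the ER with the help of chaperones and of enzymes that form disulfide bonds. When unfolded proteins build up, the sensors IRE1, ATF6 and PERK raise the folding and degradation capacity through the factors XBP1 and ATF6 and, through phosphorylation of the initiation factor eIF2, favour translation of ATF4. ATF4 is also reached by other eIF2 kinases, such as the one that senses amino acid shortage, and it drives genes of amino acid supply as well as genes of stress-related cell death. Much of this control acts on splicing, protein cleavage and translation, which gene-level RNA values do not show. XBP1 and ATF4 protein activity was therefore not measured here.

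The members were placed in 2 classes by their known regulation. The ATF6/XBP1-type class has 30 genes, namely 12 chaperones and co-chaperones, 6 genes of oxidative folding, 9 of ER-associated degradation and 3 of translocation and transport. The ATF4-type class has 7 genes. The remaining 8 genes are the sensors and factors themselves, the phosphatase subunit gene PPP1R15B and the ER-phagy receptor gene CCPG1.

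In the CEBPB libraries 9 of 12 chaperone genes, 4 of 9 degradation genes and 3 of 3 transport genes were higher and none lower. The oxidative folding genes (4 of 6 higher and 2 lower) and the ATF4-type genes passed in both directions. Of the 45 genes, 44 had enough counts to test. In the CEBPB libraries 27 were higher, against 23.7% of all 13698 identifiers tested, and 4 were lower, against 24.7% of all identifiers (edgeR's quasi-likelihood test, Benjamini-Hochberg adjusted p under 0.05 over all identifiers). In the ATF6/XBP1-type class 20 of 30 genes rose and 2 fell, with a median log2 fold change of 0.46. In the ATF4-type class 2 of the 6 genes tested rose and 2 fell, with a median of -0.02. The median over all identifiers tested was 0.001. Against a change of 1.5-fold instead of 0, 14 members rose (8.66% of all identifiers did) and 0 fell (8.67% of all identifiers did). Of those 14 genes 9 were of the ATF6/XBP1 type and 2 of the ATF4 type. Since the members were chosen with results known, these counts beside the shares of all identifiers are a description and not a test.

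Promoter sequences of the members were searched for known elements of the response. The table of RefSeq promoters (GRCh38.p14, 250 bases before to 50 bases after each start) held 41 of the 45 genes. PDIA3, DERL1, SEC24D and NUPR1 had no entry. The ER stress element (ERSE), to which ATF6 binds together with the factor NF-Y, was searched on both strands as CCAAT followed, after 9 bases of any kind, by CCACG. It stood in 7 of 27 ATF6/XBP1-type promoters, in 0 of 6 ATF4-type promoters and in 0.0916% of the 27305 genes in the table. The related ERSE-II was searched as ATTGG and, after 1 base, CCACG, so both forms share the letters CCACG. It stood in 3 of the 27, in 0 of the 6 and in 0.0696% of all genes. Classical ER stress genes are those in which these elements were described, so these shares describe the lists and test nothing.

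The windows below carry an ERSE or ERSE-II in capitals, read 5′ to 3′ on the strand of the gene with 25 bases on each side. They are shown because the first 3 genes rose and the last 2 did not pass the test, although all 5 hold the element.
HSPA5 (chr9:125241366-125241434, minus strand): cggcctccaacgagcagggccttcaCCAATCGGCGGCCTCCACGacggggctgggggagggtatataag
XBP1 (chr22:28800578-28800646, minus strand): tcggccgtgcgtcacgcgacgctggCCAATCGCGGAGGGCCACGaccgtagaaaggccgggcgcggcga
HERPUD1 (chr16:56932000-56932060, plus strand): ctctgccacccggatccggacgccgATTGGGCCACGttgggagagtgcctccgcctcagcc
CALR (chr19:12938359-12938427, plus strand): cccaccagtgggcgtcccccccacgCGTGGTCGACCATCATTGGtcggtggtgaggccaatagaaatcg
SDF2L1 (chr22:21642089-21642149, plus strand): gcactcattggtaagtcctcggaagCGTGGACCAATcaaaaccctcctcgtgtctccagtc

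In CALR and SDF2L1 the element lies on the opposite strand to the gene. Of the 11 members with an ERSE or ERSE-II, 9 rose, 0 fell and 2 did not pass, with a median log2 fold change of 0.58. Of the 25 members with a promoter and none of the motifs searched, 14 rose and 3 fell, with a median of 0.29. Of all identifiers tested 23.7% rose and 24.7% fell, and of the 44 members tested 27 rose and 4 fell. These 25 include ATF4-type genes, such as TRIB3 and VLDLR, whereas the 11 are ATF6/XBP1-type genes and XBP1. Motif and class were not separated in these counts. Among these 25 were DNAJB9 and CCPG1, the members with the largest rises.

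The composite element at which ATF4 and C/EBP proteins can bind as a pair (CARE) was searched as TGATGNAA, where N is any base. It stood in 2 of 6 ATF4-type promoters, those of ASNS and CHAC1, and in HERPUD1, PPP1R15B and CREB3L2, against 4.46% of all genes. The lines below show it in capitals for the 2 ATF4-type genes, which moved in opposite directions.
In CHAC1 the match lies on the opposite strand.
ASNS (chr7:97872444-97872501, minus strand): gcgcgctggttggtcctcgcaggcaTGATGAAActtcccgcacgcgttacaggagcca
CHAC1 (chr15:40953237-40953294, plus strand): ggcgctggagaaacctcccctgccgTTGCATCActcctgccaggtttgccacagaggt

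The C/EBP palindrome TTGCGCAA was in 0 of the 41 promoters and in 0.172% of all genes. The unfolded protein response element, searched as TGACGTGG, was in HYOU1 and DNAJC10 and in 0.927% of all genes. In HYOU1 it overlaps an ERSE-II.

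Among the sensors, the genes of IRE1 and PERK rose and that of ATF6 did not pass. ERN1, which encodes IRE1, stood at 4.09 and 3.47 TPM in the controls and at 9.61 and 8.17 TPM in the CEBPB libraries (log2 fold change 1.06, SE 0.17, adjusted p = 0.00491, edgeR). TPM is transcript abundance per length, with an equal sum for each library. EIF2AK3, which encodes PERK, was at 9.07 and 10.1 TPM in the controls and at 20.9 and 18.3 TPM in the CEBPB libraries (0.85, SE 0.11, adjusted p = 0.00251). For both kinase genes, both CEBPB libraries lay above both controls. ATF6, the sensor that is cleaved to a transcription factor, read 48.4 and 44.5 against 50.2 and 53.2 TPM (-0.02, adjusted p = 0.853).

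XBP1, whose mRNA IRE1 splices, rose from 66.1 and 65.8 to 119 and 108 TPM (0.60, SE 0.06, adjusted p = 0.00136). It lies on chromosome 22 (28794555 to 28800597, minus strand; GENCODE release 29, GRCh38, the source of all gene positions here). ATF4 mRNA was abundant in each library, at 329.9 and 323 TPM in the controls and 402 and 411 TPM with CEBPB. The change of 0.14 did not pass (adjusted p = 0.149), and it passed with libraries scaled by their totals alone (0.32, adjusted p = 0.00804). The ATF6 relative CREB3L2 overlapped between groups, at 4.60 to 5.30 TPM in the controls and 4.97 to 5.43 TPM in the CEBPB libraries (-0.11, adjusted p = 0.645).

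TPM values and fitted changes differ by a shift that runs through all genes. The fit scales libraries by the trimmed mean of M values, which sets the typical gene near 0. Scaled by totals alone, the median log2 fold change of all identifiers moved to 0.182. In that form 4424 identifiers were higher and 2360 lower, against 3251 and 3390 with that scaling, and 34 members were higher and 1 lower. Changes below are on the scale of the fit, so a gene with equal TPM in all libraries has a negative value.

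**Figure D1:**
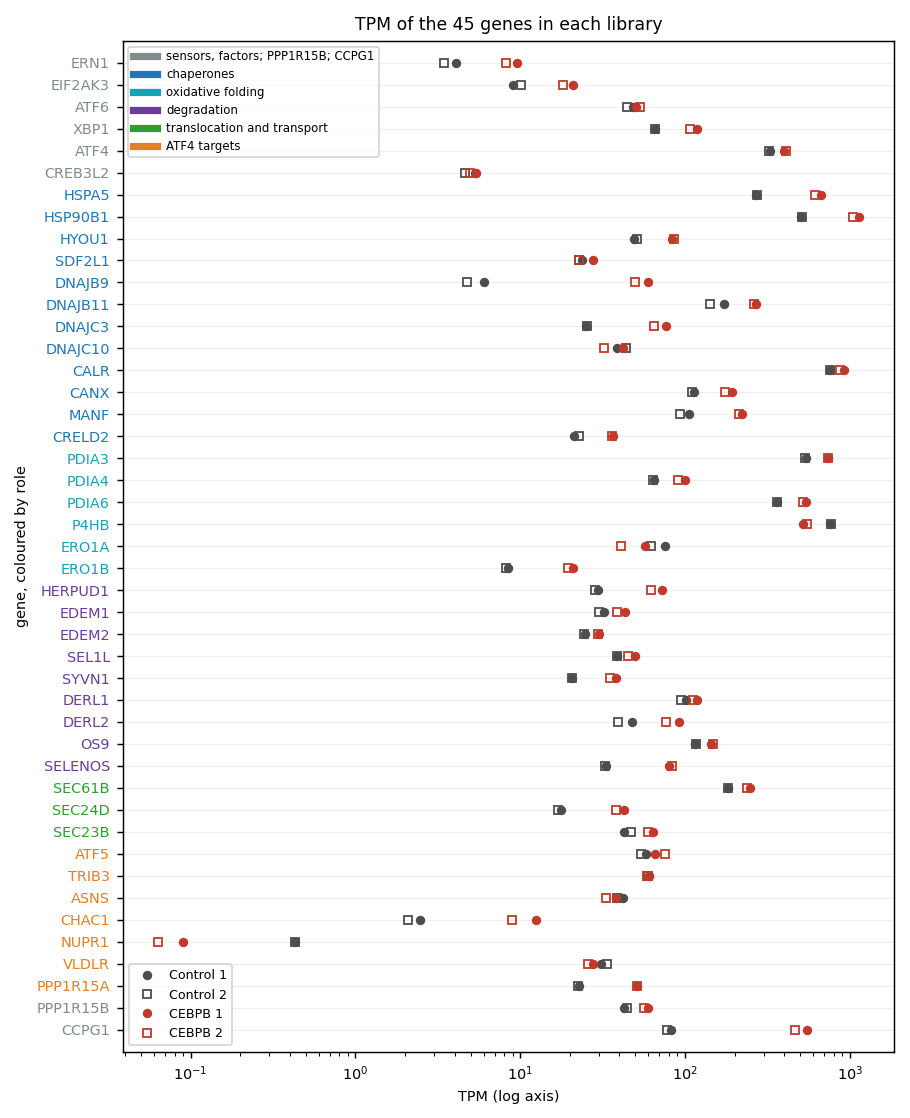
TPM (log axis) of each of the 45 genes in each of the 4 libraries, with gene names coloured by role; circles are replicate 1 and squares replicate 2, dark for Control and red for CEBPB. DNAJB9, CHAC1 and CCPG1 show the widest gaps between groups upward, P4HB and NUPR1 sit lower in the CEBPB libraries, and TRIB3 points coincide.

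Among the ER chaperones and co-chaperones 9 of 12 genes were higher, 0 lower and 3 did not pass. Their summed level was 2090.3 and 2066 TPM in the controls and 3738 and 3478 TPM in the CEBPB libraries. HSPA5 encodes BiP, the main ER chaperone of the HSP70 type (chromosome 9, 125234853 to 125241330, minus strand). It was at 270.1 and 275 TPM in the controls and 665 and 615 TPM in the CEBPB libraries, a 2.08-fold rise on the fitted scale (log2 1.05, SE 0.06, adjusted p = 2.4e-04). HSP90B1, the ER member of the HSP90 family, was at 509 and 511 against 1143 and 1046 TPM (0.92, SE 0.06, adjusted p = 3.3e-04). In the CEBPB libraries HSP90B1 mRNA stood above that of CALR, at 918 and 875 TPM, whereas in the controls CALR stood higher, at 757 and 763 TPM.

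Of the 4 J-protein co-chaperones of BiP, DNAJB9, DNAJC3 and DNAJB11 rose and DNAJC10 did not pass. DNAJB9, a J-protein that binds IRE1 and misfolded clients (chromosome 7, 108569568 to 108574850, plus strand), had 6.01 and 4.75 TPM in the controls against 60.0 and 49.5 TPM with CEBPB. The log2 change was 3.17 (SE 0.14, adjusted p = 1.5e-04), the largest rise among the members. It overlaps THAP5 and PNPLA8 on the opposite strand. Both of these were also higher in TPM, THAP5 at 20.0 and 20.1 against 37.1 and 42.7, and PNPLA8 at 12.8 and 11.0 against 47.8 and 43.2. The library kit keeps strand, but the strand setting of the quantification is not given in the sources used here. Reads of the 3 genes may therefore not be fully told apart. The same doubt holds for other members that overlap a coding gene on the opposite strand. Examples are ERO1B with GPR137B, DERL2 with MIS12, CRELD2 with ALG12, and ATF5 with IL4I1 and NUP62.

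DNAJC3, which also inhibits PERK, rose from 25.2 and 25.4 to 76.5 and 64.9 TPM (1.30, SE 0.08, adjusted p = 3.3e-04). DNAJB11, a secreted and luminal J-protein, was at 172 and 143 against 271 and 261 TPM (0.58, SE 0.10, adjusted p = 0.00681). An unnamed coding identifier overlaps it on the same strand and was listed at 0 in control 1 and at 23.4 to 25.2 TPM in the other 3 libraries. The sum of both was 172 and 168 TPM in the controls and 294 and 285 TPM in the CEBPB libraries, so the gap between the controls narrows when they are joined. DNAJC10, a reductase of the degradation pathway, overlapped between groups at 38.5 and 44.1 against 42.4 and 32.1 TPM (-0.33, adjusted p = 0.0886). It passed as lower without CEBPB replicate 1 (-0.50, adjusted p = 0.0368).

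MANF, a secreted BiP cofactor, rose from 106 and 93.8 to 222 and 214 TPM (0.94, SE 0.08, adjusted p = 7.6e-04). The nucleotide exchange factor HYOU1 (0.58), the membrane lectin chaperone CANX (0.54) and CRELD2 (0.55) rose by smaller amounts. In each of these 3 genes both CEBPB libraries were above both controls in TPM, and none of the 3 passed against 1.5-fold (adjusted p = 0.695, 1.0 and 0.896). CALR, the soluble lectin chaperone, was at 0.06 (adjusted p = 0.424). SDF2L1, a small ER stress gene, was at 23.7 and 22.7 against 27.5 and 22.9 TPM (-0.06, adjusted p = 0.643), so its groups overlapped.

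In oxidative folding members passed in both directions, with 4 of 6 genes higher and 2 lower. Its summed level was 1820.5 and 1802 TPM in the controls and 1974 and 1954 TPM in the CEBPB libraries. P4HB encodes protein disulfide isomerase, the enzyme that forms and exchanges disulfide bonds (chromosome 17, 81843159 to 81860694, minus strand). At 764 and 767 TPM it was the most abundant member in each control library. It fell to 518 and 547 TPM in the CEBPB libraries (-0.70, SE 0.07, adjusted p = 0.0014), and it also passed with libraries scaled by totals. The relatives PDIA3, PDIA4 and PDIA6 rose by 0.26, 0.38 and 0.38 on the log2 scale. PDIA3, the isomerase that works with the lectin chaperones, was at 545 and 538 against 735 and 734 TPM (adjusted p = 0.0186). These 3 calls were lost with 1 library left out. PDIA3 did not pass without control 1 (adjusted p = 0.13) or control 2 (0.148), PDIA4 without control 2 (0.0575), and PDIA6 without control 1 (0.0511).

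The paired oxidases that recharge protein disulfide isomerase moved apart. ERO1B was at 8.42 and 8.22 TPM in the controls and 21.0 and 19.6 TPM in the CEBPB libraries (1.11, SE 0.10, adjusted p = 7.6e-04). ERO1A, which is also a hypoxia gene, was at 76.0 and 62.4 against 57.2 and 40.9 TPM (-0.68, SE 0.16, adjusted p = 0.0199). The groups of ERO1A did not overlap, but the gap between them was smaller than the gap within the CEBPB group. Its call was lost with totals alone (-0.49, adjusted p = 0.0692), and also when control 1 (0.073) or CEBPB replicate 2 (0.0583) was left out.

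In ER-associated degradation 4 of 9 genes rose and 0 fell, with 5 not passing. HERPUD1, an organiser of the ligase complex, rose from 29.8 and 28.6 to 72.5 and 62.1 TPM (1.03, SE 0.08, adjusted p = 5.8e-04). SELENOS, a selenoprotein that recruits the extraction machinery, rose from 33.1 and 32.7 to 80.4 and 83.0 TPM (1.13, SE 0.08, adjusted p = 3.8e-04). SYVN1, the ubiquitin ligase itself, was at 20.7 and 20.5 against 38.3 and 35.3 TPM (0.65, adjusted p = 0.00161). It overlaps the abundant ribosomal gene FAU on the same strand, which read 1006 and 1020 TPM in the controls and 740.1 and 769 TPM in the CEBPB libraries. The rhomboid-like channel protein DERL2 was at 47.5 and 39.3 against 91.7 and 77 TPM (0.78, adjusted p = 0.00413).

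The other 5 degradation genes did not pass. EDEM1 (0.22, adjusted p = 0.0675), EDEM2 (0.10, 0.308) and OS9 (0.15, 0.134) recognise or trim mannose on misfolded proteins, and none passed. SEL1L, the cofactor of SYVN1, was at 0.12 (adjusted p = 0.193) and DERL1 at 0.05 (adjusted p = 0.561). In TPM all 5 had both CEBPB libraries above both controls. On log2(TPM + 0.1) the median change of all identifiers was itself 0.176, against 0.001 in the fit. The share of all identifiers with such a gap in TPM was not counted, so no rise is read from it. Scaled by totals alone, EDEM1, EDEM2, SEL1L and OS9 passed as higher (0.28 to 0.40, adjusted p from 0.00994 to 0.034).

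All 3 genes of translocation and transport rose. SEC24D, a cargo adaptor of the COPII coat that carries proteins out of the ER, rose from 17.7 and 16.9 to 42.5 and 38.2 TPM (1.04, SE 0.08, adjusted p = 5.2e-04). SEC61B, a subunit of the translocon, was at 182 in both controls against 248 and 237 TPM (0.24, adjusted p = 0.0215). SEC23B, an inner coat subunit, was at 42.5 and 47.3 against 64.4 and 59.5 TPM (0.29, adjusted p = 0.0302). SEC61B did not pass without control 1 (adjusted p = 0.165) or control 2 (0.161). SEC23B did not pass with any 1 library left out (adjusted p from 0.0597 to 0.205) nor with DESeq2 (0.0578).

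CCPG1, the ER-phagy receptor that links ER fragments to autophagosomes, showed the second largest rise of the members (chromosome 15, 55340032 to 55408510, minus strand). It read 81.9 and 78.3 TPM in the controls and 550.2 and 464 TPM with CEBPB, a 5.58-fold rise on the fitted scale (log2 2.48, SE 0.08, adjusted p = 1.0e-04), and it passed under each alternative tried. PIGB overlaps it on the opposite strand, at 22.5 and 25.1 against 22 and 23.3 TPM.

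**Figure D2:**
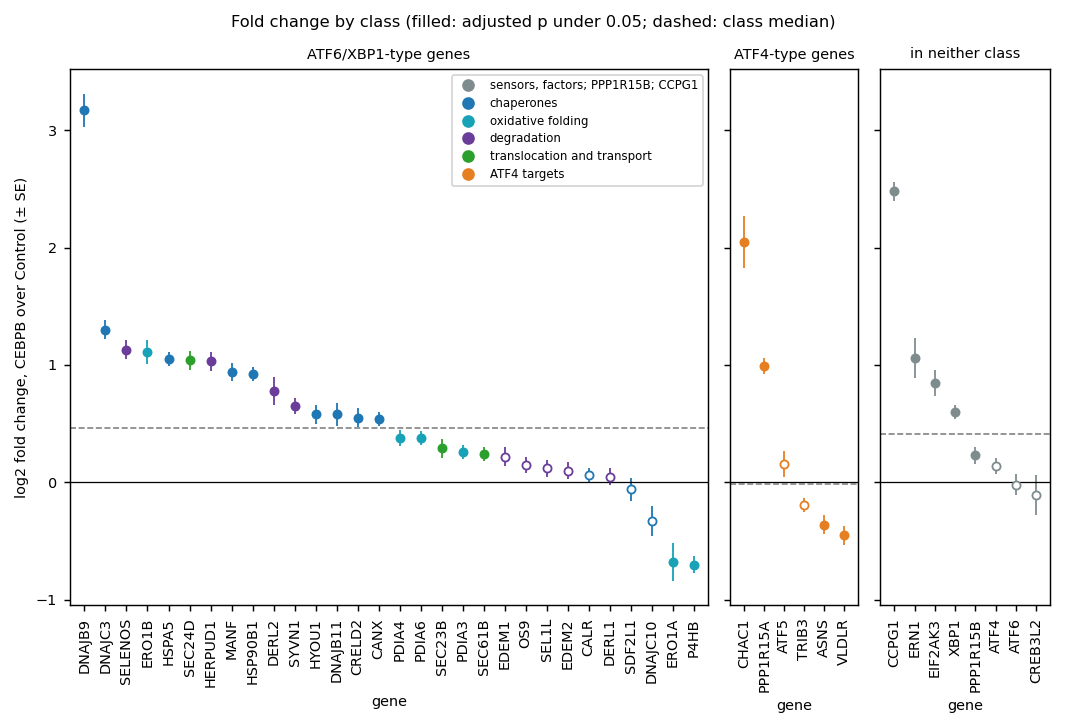
Log2 fold change (CEBPB over Control, points with SE, edgeR) of the 44 tested genes, ordered within the ATF6/XBP1-type class, the ATF4-type class and the genes in neither; filled points passed at adjusted p under 0.05 and the dashed line is the class median. The median lies at 0.46 for the ATF6/XBP1 type and at -0.02 for the ATF4 type, where CHAC1 and PPP1R15A stand above 4 genes near or below 0.

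Of the 6 ATF4-type genes tested, CHAC1 and PPP1R15A rose, ASNS and VLDLR fell, and TRIB3 and ATF5 did not pass. CHAC1, which degrades glutathione, read 2.48 and 2.08 TPM in the controls and 12.5 and 8.89 TPM in the CEBPB libraries (2.05, SE 0.22, adjusted p = 0.00136). These levels rest on 54.0 to 76 recovered reads in the controls and 217 to 360 in the CEBPB libraries. PPP1R15A (GADD34), the inducible subunit that directs a phosphatase to eIF2, rose from 22.8 and 22.4 to 50.9 and 51.0 TPM (0.99, SE 0.07, adjusted p = 4.9e-04). Both genes also passed against 1.5-fold (adjusted p = 0.00392 and 0.00416). The constitutive counterpart PPP1R15B was at 42.7 and 44.6 against 59.4 and 56.5 TPM (0.23, adjusted p = 0.035). It did not pass with any 1 library left out (adjusted p from 0.0684 to 0.23), with the replicate numbers as a block (0.0543) or with DESeq2 (0.125).

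ASNS, the asparagine synthetase gene and a classical amino acid response target, was at 42.1 and 38.9 against 38.1 and 33.0 TPM (-0.36, SE 0.08, adjusted p = 0.0172). VLDLR, a lipoprotein receptor, was at 31.0 and 33.6 against 27.8 and 26.0 TPM (-0.45, SE 0.08, adjusted p = 0.00694). Both were called lower on the scale of the fit only, since with totals alone neither passed (ASNS -0.18, adjusted p = 0.19, and VLDLR -0.27, adjusted p = 0.0563). ASNS also did not pass without control 1 (adjusted p = 0.104) or CEBPB replicate 2 (0.0595). TRIB3, a pseudokinase that restrains ATF4, was at 60.2 and 59.9 against 60.4 and 58.9 TPM (-0.19, adjusted p = 0.0584). ATF5, a factor made when eIF2 is phosphorylated, was at 58.3 and 54.0 against 66.0 and 75.3 TPM (0.16, adjusted p = 0.296).

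NUPR1, a small stress-induced chromatin protein, was the only member not tested, as it fell below the filter on low counts. It read 0.432 and 0.430 TPM in the controls and 0.0896 and 0.0631 TPM in the CEBPB libraries. The reads behind these values were 13.0 and 12.1 in the controls and 8.12 and 5 in the CEBPB libraries. The effective length rose from 1766 and 1531 to 5546 and 5549 bases, so the reads differed less between groups than the TPM values.

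The difference between the medians of the classes was 0.48 on the log2 scale. It lay between 0.39 and 0.56 with any 1 library left out. Scaling by totals alone shifts all genes nearly alike, so the value of 0.48 found there is no separate check. The difference was 0.65 with no filter on low counts. On recovered reads it was 0.65 with a length offset and 0.67 without one. The members were chosen with results known, so no test of this difference is given.

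Genes of the same pathways outside the 45 were counted in further lists. Of 28 further ATF4 and amino acid response genes 25 were tested. In this list 5 rose and 14 fell, beside 23.7% and 24.7% of all identifiers, with a median log2 fold change of -0.45. The cystine transporter subunits SLC7A11 (1.06) and SLC3A2 (1.02) rose, and so did the stress factor DDIT3 (CHOP), from 20.7 and 17.9 to 37.5 and 39.4 TPM (0.81, adjusted p = 0.00266). The large neutral amino acid transporter SLC7A5 fell from 107 and 100.4 to 41.3 and 45.8 TPM (-1.43, adjusted p = 4.1e-04). EIF4EBP1, which restrains cap-dependent translation, fell from 166 and 165 to 48.5 and 58.7 TPM (-1.81, adjusted p = 4.1e-04), and the mitochondrial folate enzyme MTHFD2 fell by 0.62 on the log2 scale. These 6 genes kept their direction and call with totals alone. Of 11 genes of eIF2, its other kinases and its exchange factor eIF2B, 5 fell and 2 rose, beside 24.7% and 23.7% of all identifiers. EIF2B3 fell most clearly, from 43.1 and 43.5 to 23.1 and 24.9 TPM (-1.03, adjusted p = 7.6e-04). The rises of EIF2AK2 (0.43) and EIF2B2 (0.24) were lost without CEBPB replicate 1 (adjusted p = 0.071 and 0.0888), CEBPB replicate 2 (0.0516 and 0.0863) or control 2 (0.0902 and 0.269), and that of EIF2B2 also without control 1 (0.093).

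Of 73 tested genes in 6 further ER lists, 23 rose and 13 fell, beside 23.7% and 24.7% of all identifiers, with a median of 0.06 against 0.001 for all identifiers. The counts of the single lists are small and are given as a description, with nothing particular to a list read from them. With totals alone 36 rose and 7 fell. Without control 1, 6 fell, and without control 2, 15 rose and 8 fell. Other foldases and exchange factors (5 of 10 higher, 1 lower) held QSOX1, a sulfhydryl oxidase, at 48.6 and 52.3 against 238 and 208 TPM (1.96, adjusted p = 1.3e-04), and the BiP relative HSPA13 (0.88). The disulfide isomerase PDIA5 fell (-0.70), as P4HB did. In the translocon list (3 of 17 higher, 3 lower) SEC62, which is also an ER-phagy receptor, rose from 141 and 133 to 536 and 492 TPM (1.73, adjusted p = 1.2e-04), while the signal peptidase subunit SPCS1 fell (-0.71). Other degradation genes split evenly, with 4 of 12 higher and 4 lower, among them UBXN4 (0.93) and the conjugating enzyme UBE2G2 (-0.75).

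In the COPII list 5 of 12 tested genes rose and 1 fell. SEC23A, the paralog of SEC23B, rose from 17.1 and 16.8 to 35.8 and 37.5 TPM (0.93, adjusted p = 9.9e-04). In the glycosylation list 2 of 12 rose and 3 fell, with changes from -0.41 to 0.47. In the list of sensor processing 4 of 10 rose and 1 fell. CREB3 rose (0.79), and its relative CREB3L1 was read at 0.0538 and 0.0753 TPM in the controls and 1.15 and 0.678 TPM in the CEBPB libraries, a call lost without control 1 (adjusted p = 0.104), control 2 (0.0781) or CEBPB replicate 1 (0.0872).

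**Figure D3:**
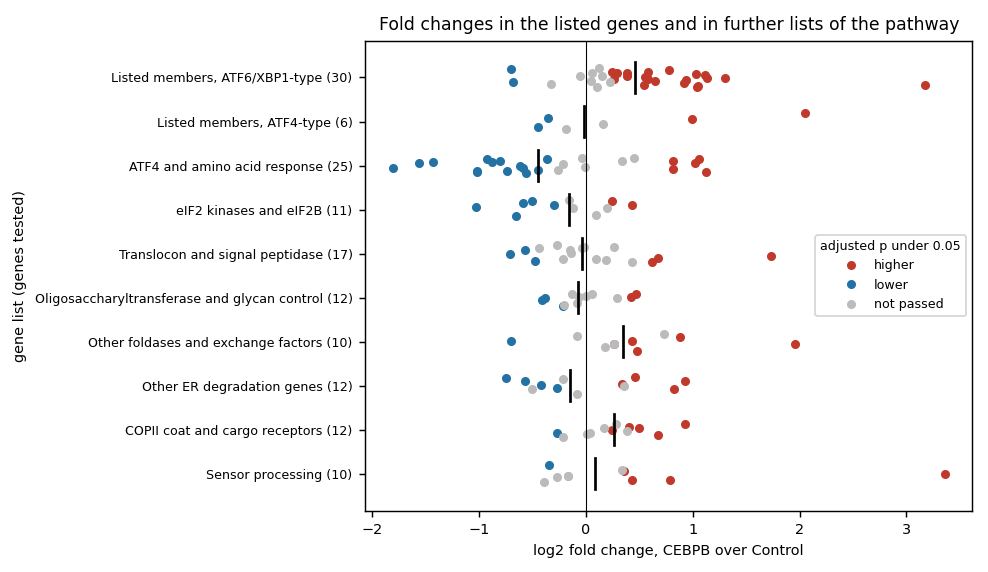
Log2 fold change (CEBPB over Control) of each tested gene in the ATF6/XBP1-type and ATF4-type classes and in 8 further lists, with the number of genes tested in brackets; red passed as higher, blue as lower, grey did not pass, and the bar is the list median. The further ATF4 list has a median of -0.45, and the other further lists have medians from -0.16 to 0.35.

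The deposited effective lengths give a further readout, since the length of a gene rises when reads are assigned to its longer transcripts. In 9 members both CEBPB libraries had a longer effective length than both controls, with the mean at least 10% longer (13.4% of all identifiers tested), and 0 members were shorter by the same rule (4.34% of all). The median change was 2.12% over the members tested and 2.27% over all identifiers. The 9 genes were ATF6, CREB3L2, DNAJC3, ERO1A, ERO1B, HERPUD1, EDEM1, SEL1L and DERL1. Such a share lies close enough to that of other genes that nothing particular to the members is read from it.

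For these 9 genes, the change per transcript and the change in reads differ. Recovered reads are TPM times effective length, so in genes chosen for a longer length the change in reads must be the larger. ERO1A had 2031 and 2402 recovered reads in the controls and 2007 and 1583 in the CEBPB libraries, while its effective length was 1563 and 2091 against 2148 and 2713 bases. Tested on reads with no length offset, its log2 fold change was -0.33 in place of -0.68. SEL1L had an effective length of 4686 and 4870 bases in the controls and 5880 and 6155 bases in the CEBPB libraries. On reads it passed as higher (0.40, adjusted p = 5.4e-04), against 0.12 and no call on the deposited counts. EDEM1 (0.31, adjusted p = 0.0028), DERL1 (0.18, 0.0338) and ATF6 (0.15, 0.0446) also passed as higher on reads alone. The calls of SEL1L and of these genes on reads rest in part on the lengths by which they were chosen.

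**Figure D4:**
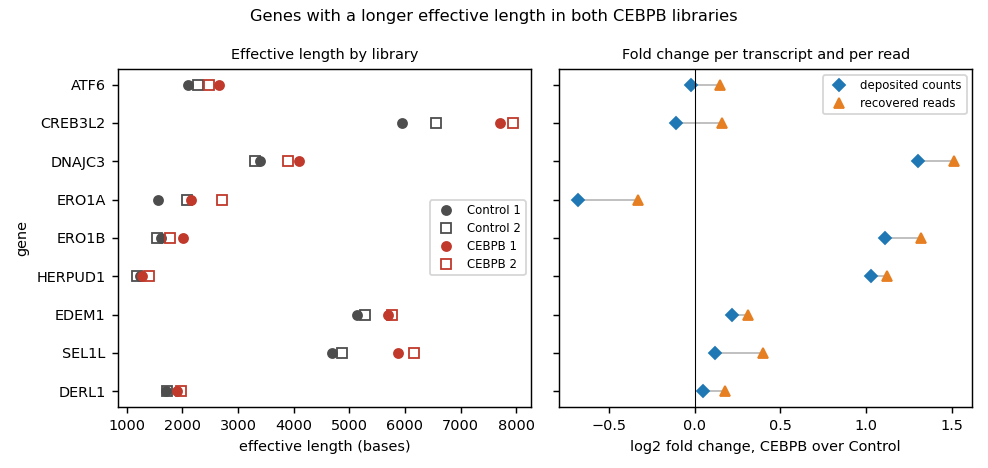
Left, effective length in bases of the 9 members whose length was at least 10% greater in the CEBPB libraries, in each library; right, log2 fold change (CEBPB over Control) of the same genes from the deposited counts (diamonds) and from recovered reads without a length offset (triangles). Each triangle lies to the right of its diamond, which follows from the choice of genes by length, and ERO1A moves from -0.68 to -0.33.

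The libraries held 18151225 to 21950575 counts in total. CEBPB itself stood at 4.72 and 4.47 TPM in the controls and at 536 and 339 TPM in the CEBPB libraries (6.38, SE 0.26, adjusted p = 1.3e-04), higher in the libraries labelled CEBPB. Of 10 myeloid markers, LYZ, PTPRC, SPI1 and CD33 were present in every library, with CD33 at 46.5 to 53.0 TPM, while MPO was at 0.194 to 1.79 TPM and CD14 at 0.996 to 5.36 TPM. Of the 10, LYZ, ITGAM and CD14 were higher and SPI1, FCGR1A, CSF1R, ELANE and MPO lower in the CEBPB libraries, with a median log2 fold change of -0.62. The summed list, most of it LYZ, was at 1965 and 1866 against 8116 and 8412 TPM. Of the defining markers of other cells, CD3E, JCHAIN, HBB, HBA1, PF4 and KRT18 were at 0 in every library. The summed lymphoid list was at 23.5 and 24.7 TPM in the controls and 9.58 and 13.8 TPM in the CEBPB libraries, nearly all of it NKG7. The epithelial and stromal list was at 89.8 and 81.5 against 39.7 and 41.1 TPM, most of it PECAM1. Their part in the results was not tested. Within groups, members with at least 1 TPM in each library differed between replicates by ratios of 0.791 to 1.15 in the controls and 0.713 to 1.14 in the CEBPB libraries. In bulk RNA, fewer cells expressing a gene and less RNA per cell cannot be told apart.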

How the data were processed

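Poly(A) RNA of 2 CEBPB and 2 Control libraries was sequenced with a stranded kit, per the labels' protocols. The submitters' processing notes name Trimmomatic 0.39, kallisto 0.46.2 and GRCh38. Not given in the sources used here are the annotation release, how strand was set and how transcripts were summed to genes. The authors deposited expected counts, TPM and effective lengths per gene. The deposited expected counts are proportional to TPM within each library, that is, already corrected for transcript length, and were rounded to whole numbers. Recovered reads are the deposited TPM times effective length, scaled per library.

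The rounded counts of all 4 libraries were fitted with edgeR 4.0.16 (R 4.3.3, limma 3.58.1) by the quasi-likelihood test, after filterByExpr and trimmed-mean scaling, with no covariate. P-values were adjusted by the Benjamini-Hochberg method over all 13698 identifiers tested. SE is the absolute log2 fold change divided by the square root of the F statistic. The biological coefficient of variation was 11.3%. The fit was tested on simulated data. Alternatives were other scalings, filters and fits, DESeq2 1.42.0, limma on log2(TPM + 1) and log2(TPM + 0.1), recovered reads, the replicate block and leaving out each library. Recovered reads with no length offset, and all alternatives for the further lists, were added after the data were seen.

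Members and lists were chosen with earlier results of these data known. All members are named, and of each further list up to 3 genes per direction by smallest adjusted p, plus CEBPB and DDIT3. Gene positions were matched by stable identifier to GENCODE release 29, which may differ from the files' annotation. Motifs were searched in RefSeq promoters on both strands, and matplotlib 3.10.9 (Python 3.11.15) drew the figures.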

Additional observations from a re-analysis of the deposited data

How the results depend on the processing

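Of the 44 tested members, 14 kept their direction and their side of the threshold in all 16 other settings. Tested against a 1.5-fold change, all identifiers gave 1186 higher and 1188 lower, the members 14 and 0, the ATF6/XBP1-type genes 9 and 0, and 0 ATF4-type genes were lower. With libraries scaled by totals alone, 1 member was lower, of the ATF6/XBP1 type, and 0 of the ATF4 type, and the class medians were 0.64 and 0.16. On log2(TPM + 1) the same counts were 1, 1 and 0 with medians of 0.63 and 0.16, and on log2(TPM + 0.1) they were 1, 1 and 0 with 0.64 and 0.16. The ATF4-type median was -0.19 with no filter on low counts, -0.20 on recovered reads with a length offset and -0.22 without one, and the difference of the medians was 0.65, 0.65 and 0.67. These 3 settings also tested NUPR1. On recovered reads with a length offset 4 ATF4-type genes were lower, NUPR1 among them. With 1 library left out, 22 to 25 members were higher and 2 to 5 lower. By class, 16 to 19 ATF6/XBP1-type genes were higher and 1 to 3 lower, and 1 to 2 ATF4-type genes were lower. The medians ran from 0.41 to 0.47 and from -0.09 to 0.07, and their difference from 0.39 to 0.56. Without control 1 or CEBPB replicate 2, 2 members were lower.

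Some genes near 0 changed sign, and the cause in single genes was not tested. The median of all identifiers moved as well, from 0.001 to 0.182 with totals alone. It was 0.151 on log2(TPM + 1) and 0.176 on log2(TPM + 0.1). ATF6 was at 0.15 with totals alone and on recovered reads without an offset, at 0.15 and 0.16 on log2 TPM, 0.04 without control 1, 0.06 without CEBPB replicate 1 and -0.10 without CEBPB replicate 2. CREB3L2 was at 0.08 with totals alone, 0.16 on recovered reads without an offset, and 0.06 and 0.07 on log2 TPM. SDF2L1 was at 0.12 with totals alone, 0.11 on both log2 TPM scales and, with 1 library left out, from -0.15 to 0.03 (without CEBPB replicate 1 and 2). DERL1 was at -0.00413 without control 2, and SAR1B, a COPII gene, at 0.01 on recovered reads without an offset.

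No link between same-numbered libraries is named in the sources used here. Their deviations from the group means correlated at -0.047 over 11466 identifiers, and whether they share a batch was not tested. With the replicate block 26 members were higher and 4 lower, and PPP1R15B lost its call (adjusted p = 0.0543). With 2 libraries a group, a change that missed the threshold may still be present.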
